A study of Ranunculus trichophyllus with 6 samples.

Results

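Abscisic acid (ABA) is the plant hormone of drought, salt stress and seed dormancy, and in *Arabidopsis thaliana* its receptors block phosphatases of the PP2C type, which frees SnRK2 kinases to act on transcription factors and on the ion channels that close stomata. In amphibious plants the hormone is best known as a signal of life on land, since leaves formed with it carry stomata. The genes described here are the *Ranunculus trichophyllus* homologs of *Arabidopsis* genes that the annotation of the assembled transcripts places under the response to ABA or under ABA signalling. Genes also placed under the responses to chitin, wounding, jasmonic acid or ethylene were left out, as were 4 genes by name, CYP707A2, PYL1, PYL4 and RD22. That rule used no expression value, but it was set with earlier results of these data known. By it 160 of 8613 homologs were members, 126 of them under the response term, 47 under the signalling term and 13 under both. They were the best match of 349 of the 17559 transcripts with an *Arabidopsis* match. Of the members, 93 had 1 transcript and 67 had 2 or more, whose counts were summed, so a member can hold several paralogs. The median identity of a member's transcripts with the *Arabidopsis* protein was 60%, and the term rested on experimental evidence in *Arabidopsis* for 112 members. None of these genes was placed by an experiment in *R. trichophyllus*, so each role given below is that of the *Arabidopsis* gene.

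RNA was sequenced from *R. trichophyllus*, a wild species with no transgene. There were 3 libraries of aquatic plants (replicates 1 to 3), which were soaked as 1 week seedlings, and 3 libraries of terrestrial plants (replicates 1 to 3). As the source of RNA the methods of the study name whole plants, and a figure legend names the upper parts of seedlings. By the labels, replicate 1 of each condition was leaf at 14 days, and replicates 2 and 3 were leaf together with the shoot apical meristem at 11 days, whereas the methods of the study give 1 harvest, later than both ages. Each test across genes therefore has the harvest as a term, and at 14 days each condition has 1 library. The labels do not say whether replicates were separate cultures, so p-values measure only the spread between these libraries. Levels of 1 gene across libraries are given as CPM (counts on the homolog scaled to the TMM-corrected total of its library), and levels of different genes are compared as TPM, which is per transcript length.

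The total count per library was 26864711 to 33978729 in aquatic plants and 25345718 to 30113443 in terrestrial plants. Aquatic replicate 1 stood apart, with 36.2% of its counts in 3 transcripts and 33.4% in homologs, against 54.2 to 56.3% in homologs in the other 5 libraries. Aquatic replicate 2 had counts on 1642 transcripts with a fungal match, which held 0.585% of its counts, against 54 to 161 such transcripts in the others. Apex and cell division markers followed the harvest, with a summed level of 21.7 CPM at 14 days and 278 to 290.2 CPM at 11 days in aquatic plants, against 35.2 CPM at 14 days and 428 to 571 CPM at 11 days in terrestrial plants. STM and KNAT1, which maintain the meristem, were at 0 in both 14-day libraries. Neither was called between conditions (log2 fold change 0.40 and 0.93, aquatic over terrestrial, edgeR adjusted p = 0.493 and 0.0891). Of the 12 apex markers on the list 8 were tested, and 5 were called lower in aquatic plants, CLV1 and 4 genes of cell division. With the replicate number as a block CLV1 alone kept its call (adjusted p = 0.0683 to 0.104 for the other 4). Leaf mesophyll markers summed to 31239 to 46080 CPM in aquatic plants and 37201 to 60032 CPM in terrestrial plants. Of the 7 on the list 4 were tested, and RBCS1A was called lower, but not with the block (edgeR adjusted p = 0.0881). Of the 4 root markers tested, none was called. In RNA from tissue of mixed cell types, fewer cells of a type and less RNA per cell cannot be told apart.

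The first question was how ABA homologs differed between plants under water and plants on land. In aquatic plants 16 members rose and 11 fell among the 151 tested (edgeR quasi-likelihood test, adjusted p under 0.05 by the Benjamini-Hochberg method over all homologs), which is 17.9% of those tested, against 16.4% of all 8266 homologs tested. By direction, 10.6% of the members rose, against 9.5% of all homologs, and 7.28% fell, against 6.92% of all homologs. The share called was thus near that of all homologs. The members that rose included DOX1, PGIP1, the proton pump HA1, ANNAT4 and LTP4, and those that fell included P5CS2, TMM, ADAP, the potassium channel KT2/3 and CIPK3. The median log2 fold change of the tested members, aquatic over terrestrial, was 0.07, against -0.02 for all homologs. Members changed by more than 2-fold in either direction made up 26.5% of those tested, against 18.7% of all homologs, and this spread was not tested. In 41 members, 20 with aquatic above and 21 with aquatic below, the CPM of the conditions did not overlap, which is 27.2% of the tested members, against 25.6% of all homologs. With upper-quartile scaling, which moved the median of all homologs by -0.13, the counts were 13 higher and 17 lower, 19.9% of the members, against 19.7% of all homologs, of which 7.8% were higher and 11.9% lower. With library sizes taken from all transcripts 15 members were higher and 15 lower, 19.9%, against 17.0% of all homologs, of which 8.34% were higher and 8.69% lower.

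With the replicate number as a block, 11 members rose and 3 fell, and of all homologs 3.99% rose and 1.49% fell in that fit, 5.48% together. The calls also leaned on single libraries. Without aquatic replicate 2 no member and no other homolog passed, with edgeR adjusted p between 0.0524 and 0.123 for the 27 called members and 41 members at an unadjusted p under 0.05. PLL5 alone passed without terrestrial replicate 3, 8 of the 27 did without terrestrial replicate 2 and 15 without aquatic replicate 3. Of all homologs tested, 0.852%, 1.92% and 7.29% were called in the same fits in that order, against 16.4% with all libraries. In each of these fits all 27 kept their direction, and the fold change had 1 sign at both harvests for all 27. In 20 of the 27 the CPM of the conditions did not overlap, 12 of them higher and 8 lower in aquatic plants. The 27 were picked by a test on these same libraries. Their direction, sign and lack of overlap were therefore largely set in advance and do not bear on whether the calls hold.

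**Figure D1:**
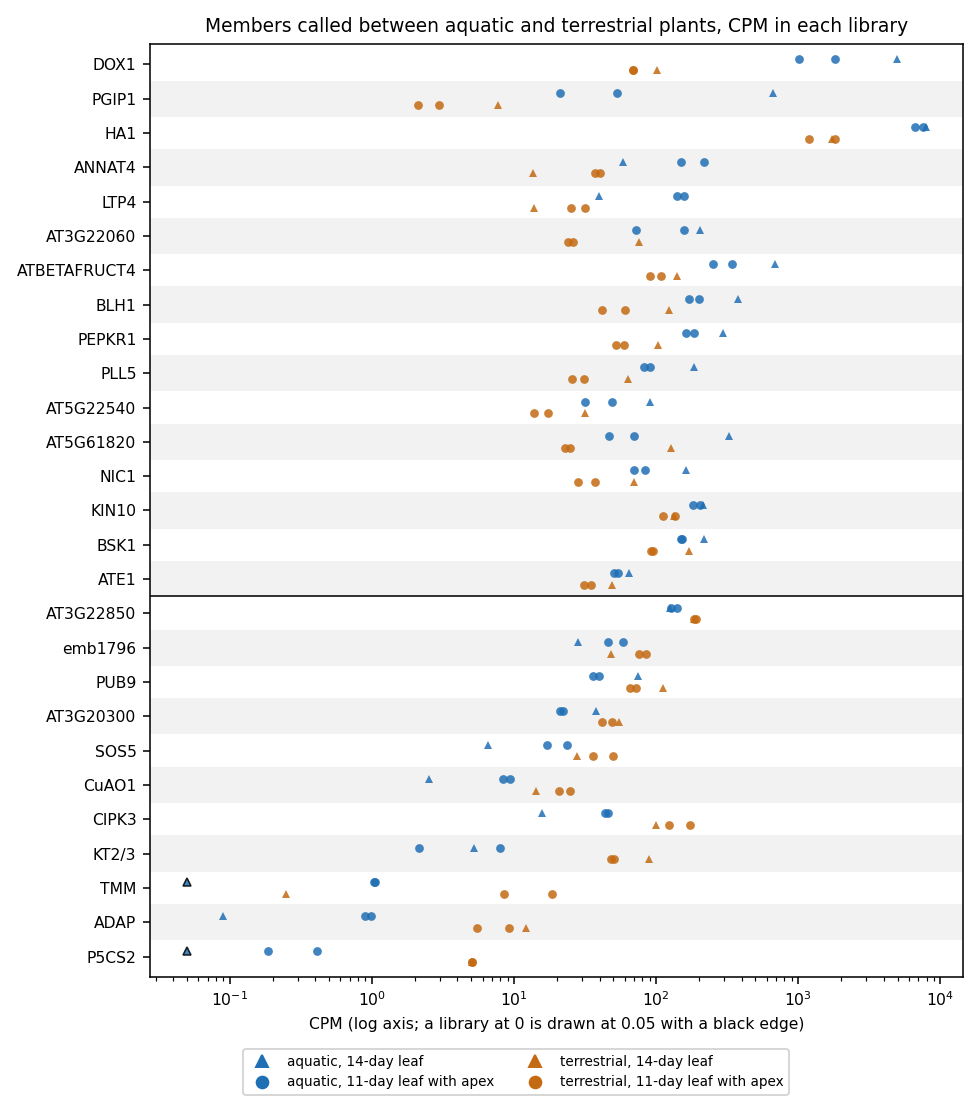
Level in CPM (log axis) of each called member in each library, with the 16 members higher in aquatic plants above the line and the 11 lower ones under it. Within a gene aquatic libraries are drawn above terrestrial ones, triangles are 14-day leaf and circles 11-day leaf with apex, and a library at 0 is drawn at the left edge. DOX1 and PGIP1 lie farthest apart upwards and P5CS2, ADAP and TMM downwards, and TMM is at or near 0 in both 14-day libraries.

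The group of enzymes and members of no other role, PGIP1 of the signalling term among them, held the largest increases of called members. DOX1, an alpha-dioxygenase that starts the oxidation of fatty acids, had 4980.2, 1813 and 1018 CPM in aquatic replicates 1 to 3, against 101, 69.04 and 68.97 CPM in terrestrial replicates 1 to 3. Each aquatic library lay above each terrestrial one, on average 2604 ± 2096 CPM in aquatic plants and 79.6 ± 18.3 CPM in terrestrial plants (SD, n = 3 each). Adjusted for harvest this was a 27.4-fold increase (log2 fold change 4.78, standard error 0.42, edgeR adjusted p = 0.009396). PGIP1, which inhibits the pectin-degrading enzymes of fungi, had 667, 53.4 and 21.04 CPM in aquatic replicates 1 to 3, against 7.71, 2.11 and 2.95 CPM in terrestrial replicates 1 to 3. The aquatic libraries were again all above the terrestrial ones, although they spread widely, with the 14-day leaf library far above the other two. The increase of PGIP1 (log2 fold change 4.76, standard error 0.78, edgeR adjusted p = 0.0219) did not pass with the replicate block (adjusted p = 0.0665).

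ATBETAFRUCT4, the vacuolar invertase that splits stored sucrose, had 684, 251 and 342 CPM in aquatic replicates 1 to 3, against 141, 108 and 90.9 CPM in terrestrial replicates 1 to 3. The conditions did not overlap, and the gene rose 3.51-fold (log2 fold change 1.81, standard error 0.23, edgeR adjusted p = 0.0156). NIC1, a nicotinamidase of NAD salvage, had 161, 83.1 and 70.04 CPM in aquatic replicates 1 to 3, against 70.1, 37.4 and 28.4 CPM in terrestrial replicates 1 to 3, and here the conditions overlapped slightly, with both 14-day libraries high. Within each harvest aquatic was above terrestrial, and NIC1 rose (log2 fold change 1.21, standard error 0.15, edgeR adjusted p = 0.0151). AT3G22060, whose product the annotation places in the cell wall and the vacuole, also rose (log2 fold change 1.94, standard error 0.35, edgeR adjusted p = 0.0283), but not with the block (adjusted p = 0.0601). This homolog sums many transcripts, of 25 to 58% identity. The most counted, with 34.2% of its counts, rose, and the next, with 30.6%, was not called (edgeR adjusted p = 0.0113 and 0.135). AT5G22540 (log2 fold change 1.42, edgeR adjusted p = 0.0195) and AT5G61820 (1.31, adjusted p = 0.0175), for which the annotation gives no molecular function, rose as well and passed with the block.

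In the same group CuAO1, a copper amine oxidase that breaks down polyamines, had 2.52, 9.34 and 8.39 CPM in aquatic replicates 1 to 3, against 14.2, 20.9 and 24.6 CPM in terrestrial replicates 1 to 3. The conditions did not overlap, with the aquatic 14-day leaf lowest, and CuAO1 fell (log2 fold change -1.7, standard error 0.28, edgeR adjusted p = 0.0225). SOS5, an arabinogalactan protein of the cell wall, had 6.56, 17.1 and 23.7 CPM in aquatic replicates 1 to 3, against 27.6, 35.7 and 49.4 CPM in terrestrial replicates 1 to 3 and also fell (log2 fold change -1.38, standard error 0.30, edgeR adjusted p = 0.0407). Neither passed with the block (adjusted p = 0.0664 for CuAO1 and 0.0705 for SOS5). AT3G22850 (log2 fold change -0.5, edgeR adjusted p = 0.03595, 0.0833 with the block) and AT3G20300 (-0.9, adjusted p = 0.0272, 0.0731 with the block) fell by less. Of the 53 members in this group, 7 rose, 4 fell and 42 were not called.

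Among the kinases and phosphatases, 4 of 23 members rose and 1 fell. PLL5, a PP2C phosphatase of the POLTERGEIST family, had 186, 90.9 and 82.5 CPM in aquatic replicates 1 to 3, against 63.7, 30.9 and 25.6 CPM in terrestrial replicates 1 to 3. The lowest aquatic library was above the highest terrestrial one, and PLL5 rose 3.02-fold (log2 fold change 1.59, standard error 0.12, edgeR adjusted p = 0.00803). PEPKR1, a protein kinase related to the calcium-dependent kinases, had 298, 183 and 161 CPM in aquatic replicates 1 to 3, against 103, 59.3 and 52.1 CPM in terrestrial replicates 1 to 3, with no overlap, and rose 3.02-fold (log2 fold change 1.6, standard error 0.12, edgeR adjusted p = 0.00803). KIN10, a catalytic subunit of the energy-sensing kinase SnRK1, rose by less (log2 fold change 0.65, standard error 0.13, edgeR adjusted p = 0.0347), as did BSK1, a kinase of brassinosteroid signalling (log2 fold change 0.58, standard error 0.12, edgeR adjusted p = 0.0376). With the block the calls of KIN10 and BSK1 were lost (adjusted p = 0.0867 for KIN10 and 0.0917 for BSK1).

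CIPK3, a kinase that works with calcium sensors in ABA and cold responses, had 15.6, 43.3 and 45.7 CPM in aquatic replicates 1 to 3, against 100.04, 123 and 174 CPM in terrestrial replicates 1 to 3. Every aquatic library was below every terrestrial one, and CIPK3 fell to a level 4.11-fold lower (log2 fold change -2.04, standard error 0.26, edgeR adjusted p = 0.0157). OST1, the SnRK2 kinase through which ABA closes stomata, had 156, 132 and 156 CPM in aquatic replicates 1 to 3, against 141, 138 and 122 CPM in terrestrial replicates 1 to 3. Its levels overlapped and the difference was small (log2 fold change 0.14, standard error 0.12, edgeR adjusted p = 0.427), with the other direction in both limma fits of FPKM. AHG1, a PP2C phosphatase of the clade that ABA receptors inhibit, is known in *Arabidopsis* from seeds. It had 1, 3 and 15 counts in aquatic replicates 1 to 3, against 75, 35 and 71 counts in terrestrial replicates 1 to 3, all aquatic values under all terrestrial ones, but missed the threshold as a homolog (log2 fold change -3.18, standard error 0.78, edgeR adjusted p = 0.0532) while its transcript passed alone (adjusted p = 0.0417). PEPKR2, GAMMA, DGD2 and PHS1 were the other members that missed the threshold narrowly (adjusted p = 0.05099, 0.05204, 0.0536 and 0.0581), named after their values were seen.

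Membrane transport and traffic held 9 members, of which HA1 and ANNAT4 rose and KT2/3 fell. HA1, a plasma membrane proton pump that energises uptake and cell expansion, had 7958, 7541 and 6669 CPM in aquatic replicates 1 to 3, against 1722, 1815 and 1185 CPM in terrestrial replicates 1 to 3. The aquatic libraries agreed closely and none overlapped a terrestrial one, on average 7389 ± 658 CPM in aquatic plants and 1574 ± 340.3 CPM in terrestrial plants (SD, n = 3 each). HA1 rose 4.698-fold (log2 fold change 2.23, standard error 0.22, edgeR adjusted p = 0.0115), nearly the same at 14 days (log2 fold change 2.21) and at 11 days (2.24). Its 1 transcript took 22.3 to 24.7% of all member counts in aquatic libraries, against 5.61 to 7.93% in terrestrial ones. Members together held 2.93 to 3.34% of homolog counts in aquatic libraries and 2.23 to 2.36% in terrestrial ones, and without HA1 2.27 to 2.56% and 2.07 to 2.17%. Proton pumps form a family of near-identical genes, so this transcript may hold the reads of more than 1 of them.

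ANNAT4, an annexin that binds membranes in the presence of calcium, had 58.3, 217 and 149 CPM in aquatic replicates 1 to 3, against 13.7, 37.1 and 40.01 CPM in terrestrial replicates 1 to 3. The conditions did not overlap, and the increase (log2 fold change 2.19, standard error 0.18, edgeR adjusted p = 0.00829) was about as large at 14 days (2.09) as at 11 days (2.24) on the log2 scale. KT2/3, a potassium channel known from the phloem, had 5.21, 2.13 and 7.96 CPM in aquatic replicates 1 to 3, against 89.04, 48.2 and 50.7 CPM in terrestrial replicates 1 to 3. Each aquatic library was below each terrestrial one, and KT2/3 fell to a level 11.7-fold lower (log2 fold change -3.55, standard error 0.53, edgeR adjusted p = 0.0195). PIP2A, a plasma membrane aquaporin, had 214, 261 and 299 CPM in aquatic libraries, against 408, 401 and 315 CPM in terrestrial ones, without overlap and without passing the test (log2 fold change -0.55, edgeR adjusted p = 0.103). GAMMA-TIP, the aquaporin of the vacuole, overlapped widely (log2 fold change 0.21, edgeR adjusted p = 0.731) and turned direction without replicate 3, aquatic replicate 3 or terrestrial replicate 2 or 3.

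Stress proteins, osmolyte enzymes and ABA synthesis genes gave 1 increase and 1 decrease. P5CS2, which makes the precursor of proline, had 0, 6 and 3 counts in aquatic replicates 1 to 3, against 81, 74 and 79 counts in terrestrial replicates 1 to 3. The terrestrial libraries were close to each other at 5.04, 5.03 and 5.07 CPM and the aquatic ones were at 0.412 CPM or less. P5CS2 fell (log2 fold change -4.6, standard error 0.65, edgeR adjusted p = 0.0183), with so few aquatic counts that the fold is imprecise, and with the block it did not pass (adjusted p = 0.0547). P5CS1, its paralog, was much more abundant and overlapped, with 91.8, 197 and 192 CPM in aquatic libraries, against 106, 147 and 159 CPM in terrestrial ones (log2 fold change 0.16, edgeR adjusted p = 0.472). LTP4, a secreted lipid transfer protein, had 39.8, 141 and 158 CPM in aquatic replicates 1 to 3, against 13.8, 31.6 and 25.2 CPM in terrestrial replicates 1 to 3, with no overlap, and rose (log2 fold change 2.11, standard error 0.23, edgeR adjusted p = 0.0128). COR47, RD20, GEA6, GolS1, KIN2, OBAP1a, TSPO, ATS1 and, of the regulators, MYB52 had too few counts to be tested, at most 21 in a library.

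LTI65, better known as RD29B and a standard reporter of ABA, had 0, 6 and 15 counts in aquatic replicates 1 to 3, against 65, 25 and 26 counts in terrestrial replicates 1 to 3. All aquatic values were below all terrestrial ones, but the difference was not called (log2 fold change -2.29, standard error 0.97, edgeR adjusted p = 0.156). NCED3, the rate-limiting step of ABA synthesis under drought, was at 1.08, 0.481 and 0 CPM in aquatic libraries, against 3.05, 1.84 and 0.128 CPM in terrestrial ones, and CLO4, a caleosin, at 1.17, 3.71 and 4.01 CPM in aquatic libraries, against 5.596, 5.65 and 5.97 CPM in terrestrial ones. Neither was called (edgeR adjusted p = 0.3101 for NCED3 and 0.111 for CLO4). The seed storage globulins CRA1 and CRU2 stood out in another way. CRA1 had 2.61, 2.75 and 71.4 CPM in aquatic replicates 1 to 3, against 1.12, 105 and 1.54 CPM in terrestrial replicates 1 to 3, and CRU2 had 0, 0 and 18.3 CPM in aquatic replicates 1 to 3, against 0, 32.7 and 0 CPM in terrestrial replicates 1 to 3. Both were thus high in aquatic replicate 3 and terrestrial replicate 2 and low in all other libraries, and neither was called (adjusted p = 0.973 and 0.843).

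Among 11 receptors and G proteins, TMM alone was called. TMM, a receptor-like protein that spaces stomata, had 0, 15 and 17 counts in aquatic replicates 1 to 3, against 4, 125 and 289 counts in terrestrial replicates 1 to 3. Both 14-day libraries were near 0, and within the 11-day harvest aquatic was below terrestrial, so the conditions overlap over all libraries but not within a harvest. TMM fell (log2 fold change -3.72, standard error 0.48, edgeR adjusted p = 0.0157). Of the 9 guard cell and stomatal lineage markers on the list 5 were tested, TMM among them. TMM and BLUS1 fell, BLUS1 not with the block (adjusted p = 0.0649), and MYB60, SPCH and MUTE were not called. Without TMM the markers tested summed to 3.41 to 7.53 CPM in aquatic libraries, against 30.0 to 89.0 CPM in terrestrial ones. Their highest sum was in terrestrial replicate 1, in which TMM was near 0. The part of these cells in the values of TMM, OST1, KT2/3 and AHG1 was not tested. The ethylene receptor EIN4, the histidine kinases HK1 and HK5 and the G protein-coupled type receptors GTG1 and GCR1 were not called.

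Of the 17 regulators of transcription tested, 1 rose and 1 fell, 11.8%, against 16.4% of all homologs. Beyond 2-fold in either direction were 7 of the 17, most of them not called. BLH1, a homeodomain protein of the BELL type, had 375, 200.4 and 171 CPM in aquatic replicates 1 to 3, against 123, 60.7 and 41.3 CPM in terrestrial replicates 1 to 3. The conditions did not overlap, and BLH1 rose 3.43-fold (log2 fold change 1.78, standard error 0.19, edgeR adjusted p = 0.0126). ADAP, an AP2-type factor named for its binding to the ABA signalling protein ARIA, had 1, 13 and 16 counts in aquatic replicates 1 to 3, against 196, 135 and 85 counts in terrestrial replicates 1 to 3. The values of ADAP did not overlap, and it fell (log2 fold change -3.72, standard error 0.73, edgeR adjusted p = 0.0336), but not with the block (adjusted p = 0.0886). ARIA itself was not called (log2 fold change 0.17, edgeR adjusted p = 0.597). ABR1, an AP2-type repressor of ABA responses, had the largest fold change of an uncalled member (log2 fold change 3.82, standard error 1.30, edgeR adjusted p = 0.09996), with 7.28, 13.8 and 0.494 CPM in aquatic libraries, against 1.06, 0.272 and 0.321 CPM in terrestrial ones, and it was looked up after its values were seen.

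Protein turnover and RNA processing held the smallest changes. ATE1, the arginyltransferase of the N-degron pathway that destroys proteins by their first residue, rose (log2 fold change 0.57, standard error 0.11, edgeR adjusted p = 0.0354), and PUB9, a U-box ubiquitin ligase, fell (log2 fold change -0.77, standard error 0.12, edgeR adjusted p = 0.0199). With the block neither passed (adjusted p = 0.0894 for ATE1 and 0.0585 for PUB9). PRT6, the ligase that follows ATE1 in that pathway, was not called (log2 fold change 0.28, adjusted p = 0.145). Of 13 RNA and organelle genes, emb1796, a pentatricopeptide repeat protein, fell (log2 fold change -0.68, standard error 0.13, edgeR adjusted p = 0.0342), not with the block (adjusted p = 0.0547). The cap-binding protein ABH1, the poly(A) ribonuclease AHG2 and the helicase LOS4, whose mutants are known for altered ABA responses, differed by -0.33, 0.12 and 0.07 on the log2 scale and were not called.

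**Figure D2:**
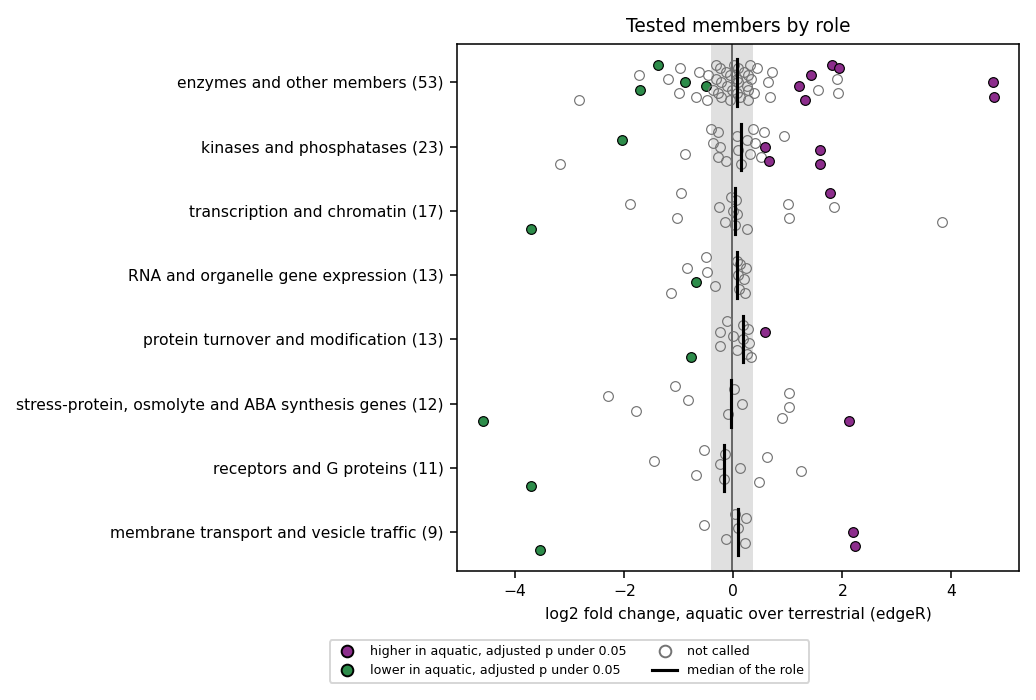
Log2 fold change (edgeR, aquatic over terrestrial) of the 151 tested members, 1 point per member, by role with the number tested. The grey band spans the 25th to 75th percentile of all 8266 homologs, the thin line is their median, filled points are called members and bars are role medians. Role medians all lie within the grey band, and called members of either direction lie far outside it or just beyond it.

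By role the median log2 fold change ran from -0.17 for receptors and G proteins to 0.17 for protein turnover, inside the middle range of all homologs, -0.40 to 0.34. The share called ran from 7.69% of 13 RNA and organelle genes to 33.3% of 9 transport genes. Of the members under the response term 15.4% were called and of those under the signalling term 21.3%. With experimental evidence 17.1% of 105 tested were called. All 16 members that rose had a mean TPM of at least 10, 15.5% of 103 such members, against 12% of all homologs of that level. Under 10 TPM no member rose and 5 of 48 fell, against 5.71% of all such homologs higher and 7.53% lower. These shares were not tested against each other.

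The most abundant members per transcript length were housekeeping enzymes and membrane proteins. FBA2, the chloroplast aldolase of carbon fixation, led with 1312, 1595 and 1747 TPM in aquatic replicates 1 to 3, against 2855, 2306 and 1902 TPM in terrestrial replicates 1 to 3. Every aquatic TPM lay below every terrestrial one, but the CPM overlapped and FBA2 was not called (log2 fold change -0.38, edgeR adjusted p = 0.261). HA1 was second over all libraries with 1223, 1327 and 1171 TPM in aquatic replicates 1 to 3, against 322, 355 and 242 TPM in terrestrial replicates 1 to 3. GAMMA-TIP had 212, 824 and 1239.6 TPM in aquatic replicates 1 to 3, against 488, 674 and 725 TPM in terrestrial replicates 1 to 3. ROC4, a chloroplast cyclophilin, and LOS2, an enolase of glycolysis, averaged 621 and 430 TPM over the 6 libraries and were not called (edgeR adjusted p = 0.248 and 0.487). The median of the members' mean TPM was 17.8, with 17 members at 100 or more and 19 under 1.

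The core of the ABA pathway was then set beside the members, from lists of 82 *Arabidopsis* genes for synthesis, breakdown, transport, receptors, PP2C and SnRK2 enzymes, transcription factors, guard cell effectors and induced genes. Only 21 of the 82 had a match, 7 of them members. Of the 16 tested 1 rose and 1 fell, and of all homologs tested 9.5% rose and 6.92% fell. The lists do not hold CYP707A2, PYL1, PYL4 and RD22, the 4 genes left out by name, all of which had a match and are not described here. Of the 12 receptors on the list PYL11 and PYL12 had a match, at 0.385 CPM or less in every library. No ABF-type factor had one, and of 9 clade A phosphatases only AHG1. A match here is the best match of a transcript, and only 20788 of the 210686 assembled transcripts were annotated. A gene without a match is therefore not shown to be absent from the plant. AAO3 and ABI3 had none either, although the study worked with genes of *R. trichophyllus* that it named RtAAO3 and RtABI3.

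CYP707A4, a hydroxylase that breaks ABA down, had 0, 1 and 4 counts in aquatic replicates 1 to 3, against 10, 63 and 48 counts in terrestrial replicates 1 to 3. All aquatic values lay below all terrestrial ones, and CYP707A4 fell (log2 fold change -4.53, standard error 0.57, edgeR adjusted p = 0.0157). In synthesis, ABA1, the zeaxanthin epoxidase, had 1099, 509 and 596 CPM in aquatic replicates 1 to 3, against 777, 335 and 245 CPM in terrestrial replicates 1 to 3, higher in aquatic plants within each replicate number, but did not pass (log2 fold change 0.79, standard error 0.19, edgeR adjusted p = 0.0514). ABA2, the xanthoxin dehydrogenase, had 32.3, 80.5 and 87.8 CPM in aquatic replicates 1 to 3, against 34.1, 26.9 and 32.9 CPM in terrestrial replicates 1 to 3 and did not pass (log2 fold change 0.98, standard error 0.36, edgeR adjusted p = 0.117). Its aquatic effect differed between harvests, at -0.08 on the log2 scale at 14 days and 1.49 at 11 days (adjusted p = 0.0497 for the difference). ABA3, which activates the last enzyme of the pathway, differed by 0.08 on the log2 scale (adjusted p = 0.658), a direction that turned with upper-quartile scaling, with library sizes from all transcripts and without replicate 3. NPF4.6, an ABA importer, differed by 0.27 (adjusted p = 0.313).

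RBOHF, an NADPH oxidase of guard cell signalling, had 0.2695, 6.04 and 5.55 CPM in aquatic replicates 1 to 3, against 0.187, 1.36 and 0.642 CPM in terrestrial replicates 1 to 3, and rose (log2 fold change 2.22, standard error 0.50, edgeR adjusted p = 0.0442). The difference lay in the 11-day libraries, since each 14-day library had 3 counts, and it did not pass with the block (adjusted p = 0.0936). RBOHD, its more abundant paralog, had 798, 451 and 143 CPM in aquatic replicates 1 to 3, against 245, 85.98 and 95.6 CPM in terrestrial replicates 1 to 3 and missed the threshold (log2 fold change 1.71, standard error 0.44, edgeR adjusted p = 0.0585). SnRK2.8, a kinase of drought responses, had 19.9, 11.7 and 11.6 CPM in aquatic replicates 1 to 3, against 26.5, 24.8 and 39.9 CPM in terrestrial replicates 1 to 3, without overlap, and also missed it (log2 fold change -1.12, standard error 0.31, edgeR adjusted p = 0.0674). The anion channels SLAH3 and ALMT12 (log2 fold change -1.53 and -1.54, edgeR adjusted p = 0.145 and 0.441), the bZIP factor ABI5 (1.82, adjusted p = 0.09701) and the NAC factor RD26 (1.75, adjusted p = 0.166) were not called. SLAH3 and ALMT12 were lower in all aquatic libraries than in any terrestrial one, and their aquatic effects differed between harvests. For SLAH3 the log2 fold change was -3.47 at 14 days and -0.69 at 11 days (edgeR adjusted p = 0.0161 for the difference), and for ALMT12 -7.83 at 14 days, where the aquatic library had 1 count, and -0.19 at 11 days (adjusted p = 0.0106). Each effect at 14 days rests on 1 library per condition.

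**Figure D3:**
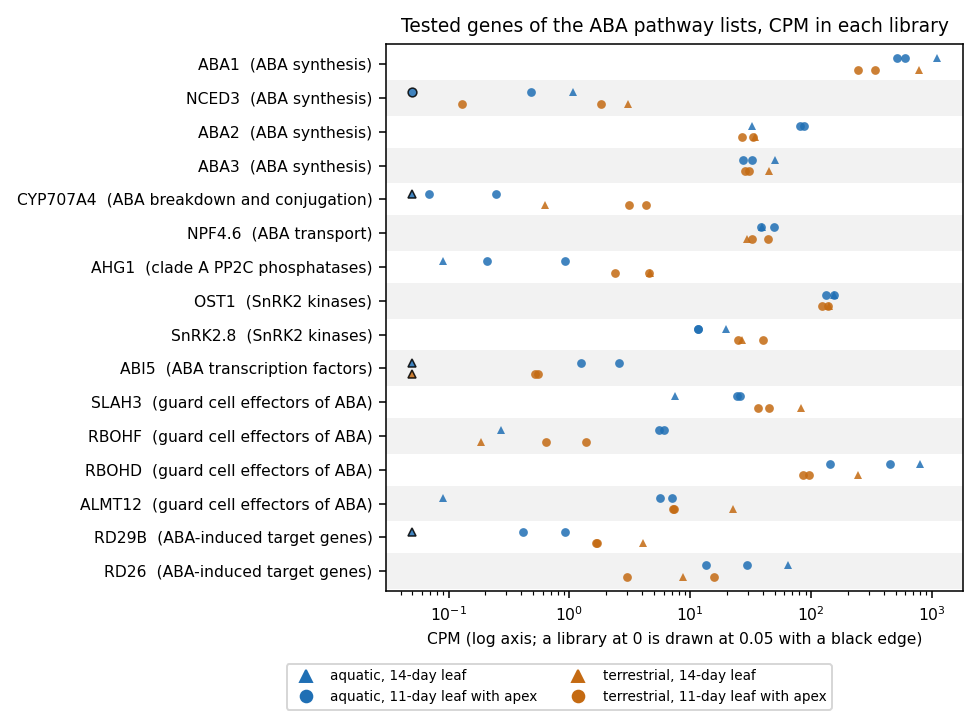
Level in CPM (log axis) of the 16 tested genes of the ABA pathway lists in each library, with the list in brackets. Within a gene aquatic libraries are drawn above terrestrial ones, triangles are 14-day leaf and circles 11-day leaf with apex, and a library at 0 is drawn at the left edge. CYP707A4 and RBOHF were called, and OST1, ABA3 and NPF4.6 lie close together in all 6 libraries.

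More members were called between harvests than between conditions. Between the 14-day leaf and the 11-day leaf with apex 22 members were higher and 22 lower, 29.1% of those tested, against 33.7% of all homologs. AIL5, an AP2-type factor of growing tips, had 0, 19.1 and 15.1 CPM in aquatic replicates 1 to 3, against 0.249, 15.8 and 14.6 CPM in terrestrial replicates 1 to 3, and fell by 6.74 in 14-day leaf on the log2 scale (edgeR adjusted p = 0.00553), with no difference called between conditions. ROP9, a small GTPase, had 0.1797, 9.75 and 7.71 CPM in aquatic libraries, against 1.803, 18.3 and 19.4 CPM in terrestrial ones and GRF1, a growth-regulating factor, 2.61, 36.9 and 42.03 CPM in aquatic libraries, against 17.9, 57.6 and 35.96 CPM in terrestrial ones, both low at 14 days. AT5G42050 went the other way, with 515, 79.99 and 15.7 CPM in aquatic libraries, against 124, 14.8 and 11.4 CPM in terrestrial ones. Apex markers moved with these values, as given above, and their part was not tested. Of the 27 members called between conditions 18 were also called between harvests, 15 with the same sign and 3, ANNAT4, LTP4 and PUB9, with the other. That is 66.7% of the called members, 55.6% with the same sign, against 53.9% and 49.2% of all homologs called between conditions. Of the 16 members that rose in aquatic plants, 11 were also higher in 14-day leaf, 68.8%, against 48.5% of all homologs that rose. These shares were not tested, and both comparisons use the same 6 libraries.

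The aquatic effect itself was compared between harvests with an interaction term, which rests on 1 library per condition at 14 days. It was called for 11 of 153 members, 7.19%, against 4.32% of all 8359 homologs tested in that fit. At 14 days the aquatic effect was lower for 8 members, against 3.76% of all homologs, and higher for 3, against 0.562%. MYB96, which activates wax synthesis under drought, had 21.5, 69.01 and 68.9 CPM in aquatic replicates 1 to 3, against 194, 74.4 and 72.9 CPM in terrestrial replicates 1 to 3. At 11 days the conditions were nearly equal (log2 fold change -0.10), and at 14 days aquatic was far lower (-3.17), a difference of -3.08 (standard error 0.19, edgeR adjusted p = 0.0101). PLP4, a patatin-like lipase, had 0.988, 123 and 117 CPM in aquatic replicates 1 to 3, against 20.1, 149.7 and 132 CPM in terrestrial replicates 1 to 3. Here too the gap was at 14 days (-4.34, against -0.23 at 11 days, adjusted p = 0.0103 for the difference). ACR8, an ACT-domain protein, showed the same order with 1.98, 13.6 and 10.7 CPM in aquatic replicates 1 to 3, against 53.4, 17.9 and 19.2 CPM in terrestrial replicates 1 to 3 (difference -4.14, adjusted p = 0.0133).

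PPCK1, the kinase that activates phosphoenolpyruvate carboxylase, had 166, 66.4 and 83.4 CPM in aquatic replicates 1 to 3, against 16.3, 80.8 and 78.6 CPM in terrestrial replicates 1 to 3. It was higher in aquatic plants at 14 days (3.34) and near equal at 11 days (-0.09, edgeR adjusted p = 0.0126 for the difference), and its overall direction turned without replicate 1. GASA1, a gibberellin-regulated peptide, had 42.9, 220.5 and 239 CPM in aquatic replicates 1 to 3, against 98.9, 41.8 and 30.3 CPM in terrestrial replicates 1 to 3. It was lower in aquatic plants at 14 days (-1.21) and higher at 11 days (2.67), a difference of -3.88 (adjusted p = 0.0133). AGG3, a G protein gamma subunit, had 66, 98 and 76 counts in aquatic replicates 1 to 3, against 0, 132 and 176 counts in terrestrial replicates 1 to 3. With 1 library at 0, its fitted difference depends on the prior count and is no measure of size. Of the other 5, BRX also has a library at 0, and ARP1, XTH6, AT4G17260 and COPT5 differed by -6.38, -6.54, -1.74 and 3.54 on the log2 scale.

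**Figure D4:**
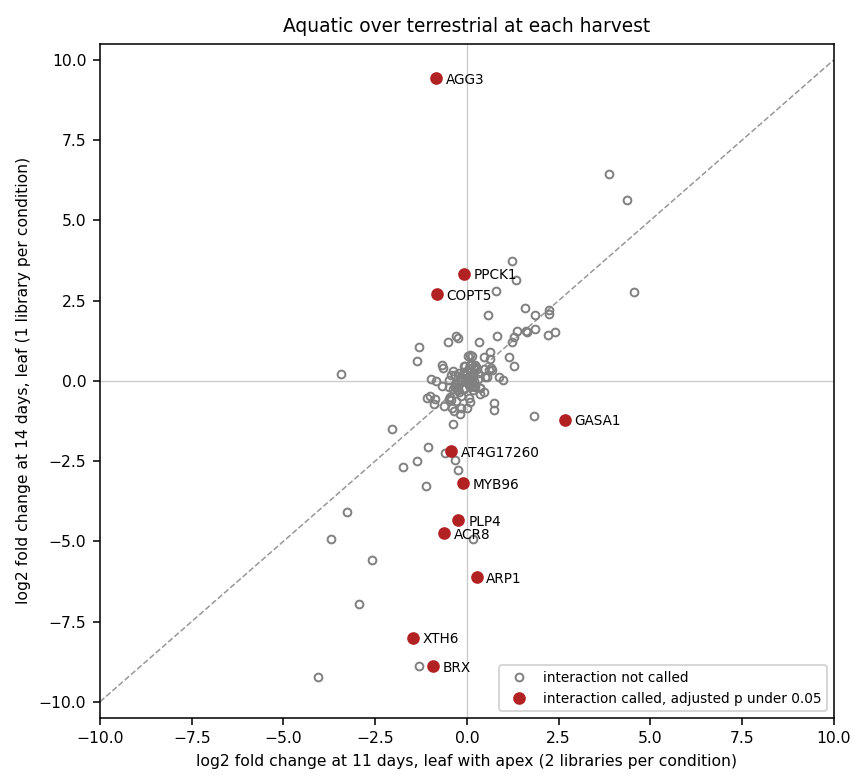
Log2 fold change, aquatic over terrestrial, of 153 members at 11 days (horizontal axis, 2 libraries per condition) and at 14 days (vertical axis, 1 library per condition), with a dashed line where both are equal. Filled points are the 11 members called for the interaction, 8 below the line and 3 above it. AGG3 and BRX have a library at 0, and their position depends on the prior count.

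Some differences between transcripts were not seen in the sum. Of 349 member transcripts 319 were tested, 27 rose and 30 fell in aquatic plants, 17.9% of those tested. Of all tested transcripts with an *Arabidopsis* match 13.8% were called, 7.57% higher and 6.24% lower, and of all tested transcripts 10.4%, 6.47% higher and 3.95% lower. With the block 20 member transcripts were higher and 17 lower, and of all tested transcripts with an *Arabidopsis* match 7.72% were called, 5.05% higher and 2.67% lower. Transcripts of 1 member share reads and are not independent. The called transcripts belonged to 32 members, 8 of which were not called as a sum, namely SRG1, CRL1, LOS2, FAC1, CPK20, PIP2A, PHS1 and AHG1. With the block only CRL1, LOS2 and AHG1 of these kept a called transcript. With the most counted transcript alone, 24 of the 27 calls were kept, and LTP4, AT5G22540 and AT3G20300 were lost, the last with the other direction. AT3G22850, called as a homolog, had 1 transcript, which was not called in the fit of all transcripts (edgeR adjusted p = 0.0559). A call can thus differ between these fits without a difference between transcripts.

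LTP4 had 4 transcripts. The one with most counts, 43.3% of the homolog's, had transcript CPM of 0.496, 20.6 and 37.02 CPM in aquatic replicates 1 to 3, against 6.68, 12.9 and 12.4 CPM in terrestrial replicates 1 to 3, with a log2 fold change of 0.00 (edgeR adjusted p = 0.999). The next, with 27.3%, had 15.7, 31.1 and 13.4 CPM in aquatic replicates 1 to 3, against 0, 0.4003 and 0.0723 CPM in terrestrial replicates 1 to 3 (log2 fold change 7.11, adjusted p = 0.00902). The other two rose as well, by 6.61 and 2.86. CRL1, a reductase-like enzyme related to lignin synthesis, had 13 transcripts, of which 1 rose (log2 fold change 1.72, adjusted p = 0.0368), but not with the block (adjusted p = 0.0833), and 3 fell, by 5.27, 5.65 and 5.45, also with the block. The 3 that fell held 0.938 to 1.06% of the counts each. In AT3G20300 the most counted of 9 transcripts, with 51.8%, differed by 0.23 (adjusted p = 0.527), and 6 others fell, 4 of them also with the block.

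**Figure D5:**
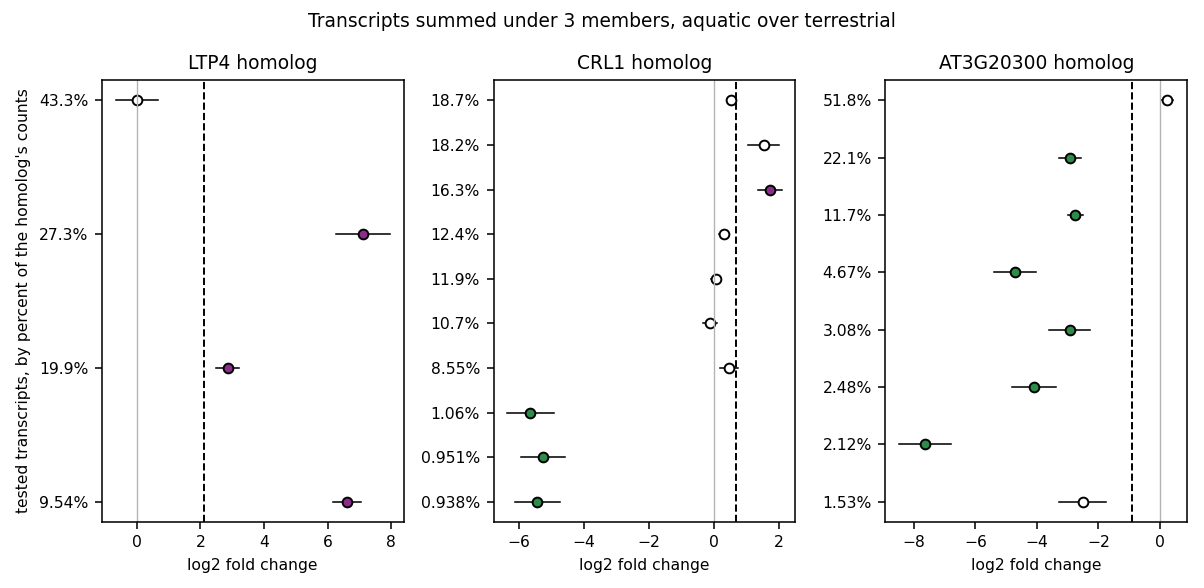
Log2 fold change, aquatic over terrestrial, of each tested transcript summed under LTP4, CRL1 and AT3G20300, ordered by its percent of the homolog's counts. Horizontal lines are standard errors, filled points are called transcripts and the dashed line is the fold change of the sum. In LTP4 and AT3G20300 the most counted transcript lies near 0 while most others lie far from it on 1 side.

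Some members followed each other across the 6 libraries. For the members with the smallest adjusted p in each direction, the closest by Pearson correlation of log2 CPM were BLH1, NIC1 and PEPKR1 for PLL5 (r = 0.995, 0.991 and 0.991), and BLH1, PLL5 and AT5G22540 for PEPKR1 (r = 0.992, 0.991 and 0.968). For CIPK3 they were CuAO1, SOS5 and CLO4 (r = 0.988, 0.972 and 0.948), and for TMM they were RHON1, AT5G60980 and FBW2 (r = 0.960, 0.947 and 0.946). These libraries share 2 conditions and 2 harvests, so the values describe likeness over both together.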

How the data were processed

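Per the file headers, the authors deposited for each of 6 libraries an expected count, a TPM and an FPKM for 210686 transcripts assembled de novo with Trinity. Mapping was by TopHat and FPKM by Cufflinks according to the authors, without versions, while the layout of the files is that of RSEM, which the sources used here do not name. The deposited expected counts were estimated by the authors per transcript and are whole numbers. The deposited TPM and FPKM values were scaled by the authors to library and transcript length. The authors' annotation table gives the best protein match, its percent of identical residues and GO terms for 20788 transcripts. In it 6 columns of values per library were not used, nor were the authors' tables on leaf GO terms, which hold log2 ratios of summed FPKM.

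Counts were rounded and summed per *Arabidopsis* match, and tested with edgeR 4.0.16 in R 4.3.3 (quasi-likelihood, TMM, minimum count of 10 with the design matrix, harvest and condition as terms), with Benjamini-Hochberg adjustment over all homologs tested. Transcripts were tested in the same way. Standard errors are approximate, since they were derived from the fold change and edgeR's F. Other fits used DESeq2 1.42.0 and limma 3.58.1 on quantile-normalized log2 FPKM, with pseudocounts of 1 and 0.1. Tables and plots used Python 3.11.15. The script was tested on simulated data with known changes. Precision is limited by 3 libraries per condition and, for low members, by counts.

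The members and the gene lists were chosen with earlier results of these data known, and the members were sorted by role after their values were seen. Named genes were the tested genes of the pathway lists, the 10 largest increases and the 10 largest decreases among called members with the same direction in all 3 replicate numbers and 50 counts or more in every library of the condition with the higher level, the 5 members with the highest mean TPM, at most 6 members called for the interaction, and the 3 most alike to the 2 members with the smallest adjusted p in each direction. Other members were named after their values were seen. PYL11 and PYL12 carry the signalling term without an evidence code and were not members. Where the same number in both conditions marks a pair, the deviations from the condition means correlate. They did, at 0.639, 0.501 and 0.432 for replicates 1 to 3, so the result of a fit blocked by replicate number is given where it changes a call of a named gene or a count. Crossed pairs of the 11-day harvest had 0.554 and 0.447, so these correlations follow the harvest. Within the 11-day harvest, with deviations taken from the mean of each condition there, libraries of the same number correlated at -0.073. The values thus do not show that the number marks a pair, and the block is given as another fit. The sequences of the transcripts were not used here.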

Additional observations from a re-analysis of the deposited data

Results flagged for a closer look

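The aquatic effect differed between harvests for 11 members by edgeR's test of the interaction (14-day effect minus 11-day effect, log2 scale, adjusted p under 0.05), and each rests on 1 library per condition at 14 days. It was lower at 14 days for MYB96 (-3.08), PLP4 (-4.11), ACR8 (-4.14), GASA1 (-3.88), ARP1 (-6.38), AT4G17260 (-1.74), BRX (-7.98) and XTH6 (-6.54). It was higher at 14 days for PPCK1 (3.43), COPT5 (3.54) and AGG3 (10.28). BRX is at 0 in aquatic replicate 1 and AGG3 at 0 in terrestrial replicate 1, so the size of these values depends on the prior count. The markers of the shoot apex and the share of counts in 3 transcripts of aquatic replicate 1 (36.2%, against 0.287% in terrestrial replicate 1) moved with the harvest and the library, and their part was not tested. No apex marker was called for the interaction. STM and KNAT1 could not be, since they were at 0 in both 14-day libraries. The guard cell marker MYB60 was called (-5.96), with 0.18 CPM in aquatic replicate 1 and 41.2 CPM in terrestrial replicate 1. SPCH, MUTE, TMM and BLUS1 were not called, SPCH and MUTE with the other direction (2.11 and 4.34). The part of guard cells was not tested either. At 14 days MYB96 had 239 counts in aquatic replicate 1, against 3114 in terrestrial replicate 1, and PPCK1 had 1844 counts, against 262.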

How the results depend on the processing

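All 27 called members kept their direction in each other fit to all homologs and with each replicate or library left out, and 26 did with the most counted transcript alone. Since the 27 were called from these same libraries, a kept direction was largely set in advance. DESeq2 called 25 members higher and 20 lower, 29.8%, against 32.9% of all homologs, and 19 for the interaction, 12.4%, against 8.73% of all homologs. Upper-quartile scaling gave 17 lower, and a median log2 fold change of -0.0645. Without a harvest term 1 of 149 tested members was higher and 0 lower by edgeR. Of all 8154 homologs tested in that fit 25 were higher and 9 lower, 0.417%. The median was 0.0334 without a filter, -0.00957 with library sizes from all transcripts, and 0.00104 and -0.000398 by limma with pseudocounts of 1 and 0.1. With matches of at least 60% identity 9 of 95 tested members were higher and 9 lower, against 466 higher and 371 lower of 4691 homologs. Of the 105 tested members with experimental evidence 10 were higher, 9.52%, and 8 lower. Both lists are shorter than that of all 151 tested members, of which 16 were higher, 10.6%, and 11 lower.

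With the replicate number as a block, 3 members and 17 member transcripts were lower. The block ended 13 of the 27 calls and those of RBOHF, RBCS1A, BLUS1 and 4 apex markers, and kept 36 of 57 calls of member transcripts.

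Leaving out replicates or libraries in turn gave 0 to 19 members higher, 0 to 14 lower and medians of -0.00776 to 0.0694. Leaving out replicates 1 to 3 in turn, which was all that was run for transcripts, gave 0 to 31 member transcripts higher and 0 to 30 lower. Among named genes, GAMMA-TIP took -0.252 without replicate 3, -0.124 without aquatic replicate 3, -0.000761 without terrestrial replicate 2 and -0.000883 without terrestrial replicate 3, and its highest value with a replicate left out was 0.75. Without replicate 1, aquatic replicate 1 or terrestrial replicate 1, PPCK1 took -0.0886, -0.0973 and -0.0901 (highest 1.71, without replicate 2), and AGG3 -0.829, -0.840 and -0.830 (highest 1.99, without replicate 3), with -0.224 for AGG3 without a harvest term. ABA3 took -0.0511 with upper-quartile scaling, -0.00150 without replicate 3 (highest 0.191, without replicate 2) and -0.000219 with library sizes from all transcripts, and OST1 took -0.0156 and -0.0160 in the limma fits with pseudocounts of 1 and 0.1. The causes were not tested. The settings on the size of the filter group and on library sizes from all transcripts were chosen after the data were seen. With 1 library per condition at 14 days, an effect there has no replicate.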
